A study of Homo sapiens with 2 samples.

Results

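The genes described here are 40 genes of the core autophagy machinery, taken from the 57485 genes in the deposited tables by their symbols and grouped by the step of autophagy in which their products act. All 40 were found, and 38 of them reached at least 1 FPKM in at least 1 library. FPKM is the number of fragments per kilobase of transcript, scaled to the fragments of the library, so that levels of different genes can be set side by side. The RNA came from ARP1, a human multiple myeloma (MM) cell line, carrying by lentivirus a hairpin against SRD5A1 that is switched on by doxycycline (Dox). There was 1 library of these cells without Dox and 1 with Dox, and both carried the hairpin construct. The genotype label of the library with Dox names SRD5A2, whereas its title names SRD5A1. Neither a library of Dox-treated cells lacking the hairpin nor the dose and duration of Dox for these libraries was available to the analysis, and whether the cells were 1 clone is not stated in the sources used here. Effects of Dox itself and of the hairpin therefore cannot be told apart.

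With 1 library per condition, no difference below has a replicate check, and no p-value is given. SRD5A1, the targeted gene, was listed at 13.04 FPKM without Dox and 25.88 FPKM with Dox (1375 and 3013.99 expected counts). Its RNA level with Dox was thus above that without, the opposite of what a knockdown would give. By western blotting, the study reported that SRD5A1 was markedly lower in ARP1 cells after Dox, which is a measure of protein. The RNA of these libraries does not show that direction. The libraries are therefore called by their labels, and every direction below is that of the library labelled with Dox relative to the library labelled without Dox. The libraries held 45918570 and 48728927 expected counts, of which 3 counts are 0.0653 and 0.0616 CPM (counts scaled to a library of 1000000). The 8 plasma cell markers were present in both libraries, at 15.73 to 834.39 FPKM without Dox and 26.61 to 715.87 FPKM with Dox. The 10 markers of B cells, T cells, myeloid cells, fibroblasts and epithelial cells lay between 0 and 1.93 FPKM, and CD3D was at 0 in both.

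Autophagy encloses cytoplasm in a double membrane and delivers it to the lysosome. The ULK kinase complex starts the process, the class III PI3K complex marks the site with a phosphorylated lipid, and ATG9 vesicles, ATG2 lipid transfer proteins and WIPI lipid readers extend the membrane. A pair of conjugation systems then attaches proteins of the ATG8 family to the membrane lipid, and SNARE proteins and tethers fuse the closed autophagosome with the lysosome. Plasma cells secrete large amounts of immunoglobulin, and autophagy is known to support their endoplasmic reticulum and survival.

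The ATG8 family is shown first by sequence, because its members differ in the end that ATG4 proteases cut and because reads of similar members can be apportioned among them. These are the last 60 bases of each coding sequence in GENCODE release 29 (GRCh38), 5′ to 3′, and the capitals mark the codon of the glycine to which the membrane lipid is joined after cleavage. MAP1LC3B2, a near-identical copy of MAP1LC3B, is shown for comparison.
MAP1LC3A: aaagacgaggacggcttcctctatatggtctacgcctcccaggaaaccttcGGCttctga
MAP1LC3B: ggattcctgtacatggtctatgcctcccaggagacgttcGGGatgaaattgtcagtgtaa
MAP1LC3B2: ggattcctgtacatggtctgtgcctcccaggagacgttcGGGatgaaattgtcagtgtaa
GABARAP: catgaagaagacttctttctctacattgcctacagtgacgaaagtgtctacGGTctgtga
GABARAPL1: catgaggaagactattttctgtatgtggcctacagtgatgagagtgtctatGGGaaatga
GABARAPL2: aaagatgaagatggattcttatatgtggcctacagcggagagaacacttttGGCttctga

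MAP1LC3B and its copy carried 5 codons between the glycine and the stop codon, and the other 4 genes carried 1. Over the whole coding sequence, MAP1LC3B and MAP1LC3B2 were 99.47% identical with 2 mismatches, MAP1LC3A and MAP1LC3B were 72.89% identical, and GABARAP and GABARAPL1 were 76.84% identical. Between the LC3 and GABARAP branches identity was lower, at 55.37% for MAP1LC3B and GABARAP. MAP1LC3B and its copy were thus the closest pair, and their counts are also given summed with the values of the family.

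Among the 38 tested autophagy genes, 6 exceeded a 2-fold higher level in the library labelled with Dox, and 0 were more than 2-fold lower. The 6 genes were WIPI1, DAPK2, RAB33B, DRAM1, MAP1LC3B and ATG2B. DRAM1 and DAPK2 reached 1 FPKM in the library with Dox and not in the other, so the filter on low values admitted them through the library where they were high. That is 15.8% of the tested autophagy genes, beside 16.9% of all 14859 tested genes and 11.8% of the 11480 tested protein-coding genes that were more than 2-fold higher. Among all tested genes 6.41% were more than 2-fold lower, and among protein-coding genes 6.04%. The share of autophagy genes past 2-fold in the higher direction thus lay near the background. The study had itself shown 4 of the 6 (WIPI1, DAPK2, RAB33B and DRAM1) as autophagy genes that differed in these libraries, so their presence is not independent evidence of a direction. Without these 4, 2 of 34 tested genes were more than 2-fold higher.

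**Figure D1:**
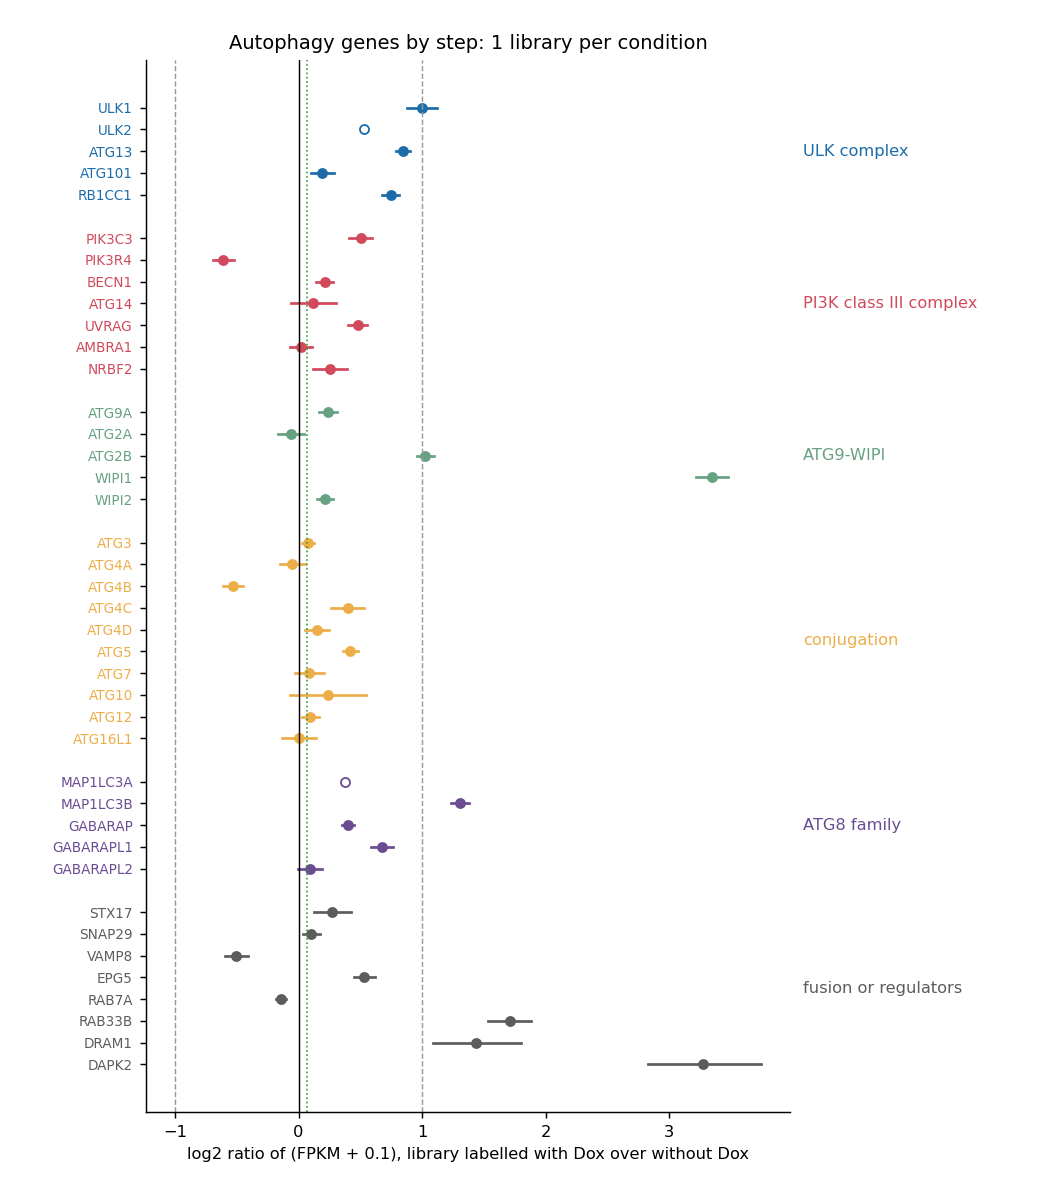
The log2 ratio of FPKM plus 0.1 of each gene, with Dox over without Dox, by step. Lines through the points are 95% counting intervals, open circles are the 2 genes under 1 FPKM in both libraries, dashed lines mark 2-fold and the dotted line marks the median of tested protein-coding genes (0.07). WIPI1 (3.34) and DAPK2 (3.27) lie far to the right, and 0 genes lie beyond 2-fold on the left.

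Ratios are log2 of FPKM plus 0.1 with Dox over FPKM plus 0.1 without Dox, a scale that understates changes of low genes. The median log2 ratio of the 38 genes was 0.24, beside 0.15 for all tested genes and 0.07 for protein-coding genes. A log2 ratio above 0 was found for 32 of 38 autophagy genes (84.2%), beside 58.4% of all tested genes and 54.3% of protein-coding genes. Many of the differences were small, as in 19 of the 38 the higher value exceeded the lower by at most 25%, and 27 lay within 1.5-fold. Of the rest, 10 were over 1.5-fold higher and 1 was over 1.5-fold lower. The shares of all tested genes within these 2 limits were not computed. With TMM factors the median of all tested genes moved from 0.15 to -0.05, and 22 of the 38 autophagy genes then lay above 0, beside 42.1% of protein-coding genes. With DESeq2 size factors 20 of 38 lay above 0, beside 41.4%. The autophagy median lay 0.17 above the protein-coding median on the deposited FPKM, a distance that such factors cannot alter, and 0.26 above it on CPM, which use no length. The split of all genes past 2-fold also depended on the scaling, with 72.5% of them higher on the deposited FPKM, 56.0% with TMM and 55.2% with DESeq2.

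**Figure D2:**
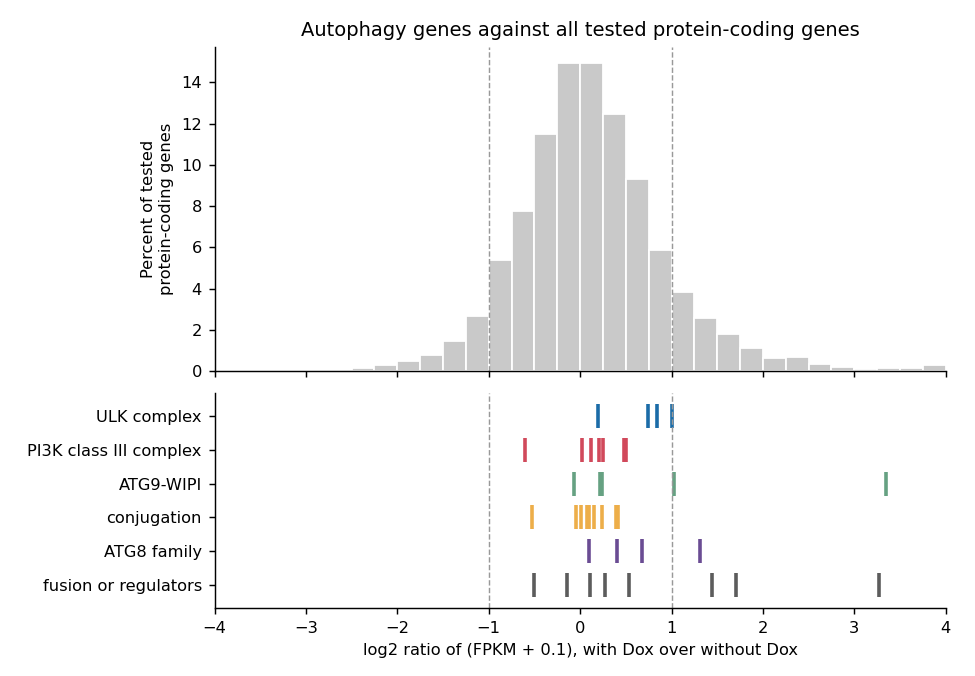
The upper panel gives the percent of tested protein-coding genes in each 0.25-wide bin of the log2 ratio (with Dox over without Dox, values beyond 4 placed in the end bins), and the lower panel gives each tested autophagy gene as a tick in the row of its step. Dashed lines mark 2-fold. The 10 conjugation genes sit in the middle of the distribution, while the ticks past 2-fold belong to the ATG9-WIPI, ATG8, and fusion or regulator rows.

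The steps differed in their medians. Among the 6 steps, the ULK complex had the highest median log2 ratio (0.80, 4 genes tested), followed by the ATG8 family (0.54, 4 genes), fusion and regulators (0.40, 8 genes), ATG9-WIPI (0.24, 5 genes), the class III PI3K complex (0.21, 7 genes) and conjugation (0.09, 10 genes). With TMM factors the ULK median was 0.59 and the ATG8 median 0.33, whereas the PI3K median was 0.0027 and the conjugation median -0.12. Without the 4 genes shown by the study, the median of fusion and regulators was 0.10 in place of 0.40, below those of ATG9-WIPI and the PI3K complex. The summed FPKM of fusion and regulators was lower with Dox (267.51 without, 246.85 with), although their median log2 ratio was above 0. The conjugation sum went from 327.36 to 335.42, the PI3K sum from 129.78 to 148.68 and the ULK sum from 89.04 to 134.94. Sums of the other steps are given below. Within a step the genes were often unlike each other.

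The ULK complex is the kinase that starts autophagy. ULK1, the kinase itself, was listed at 4.45 FPKM without Dox and 9 FPKM with Dox (779 and 1776 counts). Its log2 ratio was 1 (95% counting interval 0.88 to 1.12), at the 2-fold limit but not beyond it. Intervals for single genes come from the rounded counts by the Clopper-Pearson method and were shifted to centre on the printed log2 ratio. They reflect nothing but counting error, and not the apportioning of reads or the assigned lengths. The other kinase, ULK2, was barely detected, with 10 and 11 counts (0.08 and 0.16 FPKM), and was not tested. ATG13, the regulatory subunit, was at 35.33 FPKM without Dox and 63.57 FPKM with Dox (log2 ratio 0.85), and RB1CC1, the large scaffold also called FIP200, was at 11.08 and 18.63 FPKM (0.74). ATG101, which binds and stabilises ATG13, was at 38.10 and 43.58 FPKM (0.19), a direction that flipped with TMM and DESeq2 factors. On the deposited FPKM, the 3 genes ULK1, ATG13 and RB1CC1 were thus each at least 1.5-fold higher, whereas ATG101 was not. This depended on the scaling, as with TMM factors the ULK1 log2 ratio was 0.80 and the median of the step 0.59.

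Ratios of 2 genes within a library do not depend on how the libraries are scaled, although they do depend on the transcript lengths assigned to the genes. Pairs of partners or paralogs were compared in this way, and the pairs were chosen after the values were seen. ATG13 stood at 0.927 of the ATG101 level without Dox and 1.46 of it with Dox, a log2 change of 0.65 (counting interval 0.55 to 0.76), or 0.74 on counts with no length. The most abundant subunit of the ULK complex was therefore ATG101 in one library and ATG13 in the other.

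The class III PI3K complex makes phosphatidylinositol 3-phosphate on the growing membrane, and none of its 7 genes was past 2-fold. PIK3C3 (VPS34), the catalytic subunit, was at 12.62 FPKM without Dox and 17.92 FPKM with Dox (log2 ratio 0.50). PIK3R4 (VPS15), its obligate regulatory partner, was at 15.30 and 10.01 FPKM (-0.61) and was the only tested autophagy gene over 1.5-fold lower on the deposited FPKM. Among the genes of this step these 2 partners stood furthest apart on FPKM, and the PIK3C3 to PIK3R4 ratio went from 0.825 to 1.79, a log2 change of 1.12 (0.995 to 1.24), or 0.87 on counts with no length.

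The scaffold BECN1 (Beclin 1) was the most abundant gene of the PI3K step, at 57.60 and 66.67 FPKM (0.21, turning below 0 with DESeq2 factors). The alternative subunits differed in level: ATG14, which directs the complex to autophagosome formation, was at 2.31 and 2.52 FPKM, while UVRAG, which directs it to endosomes and maturation, was at 18.75 and 26.17 FPKM (0.48). UVRAG was thus more abundant than ATG14 in both libraries, at 8.12 and 10.4 times its FPKM. The accessory subunits were AMBRA1 at 12.87 and 13.06 FPKM and NRBF2 at 10.33 and 12.33 FPKM.

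**Figure D3:**
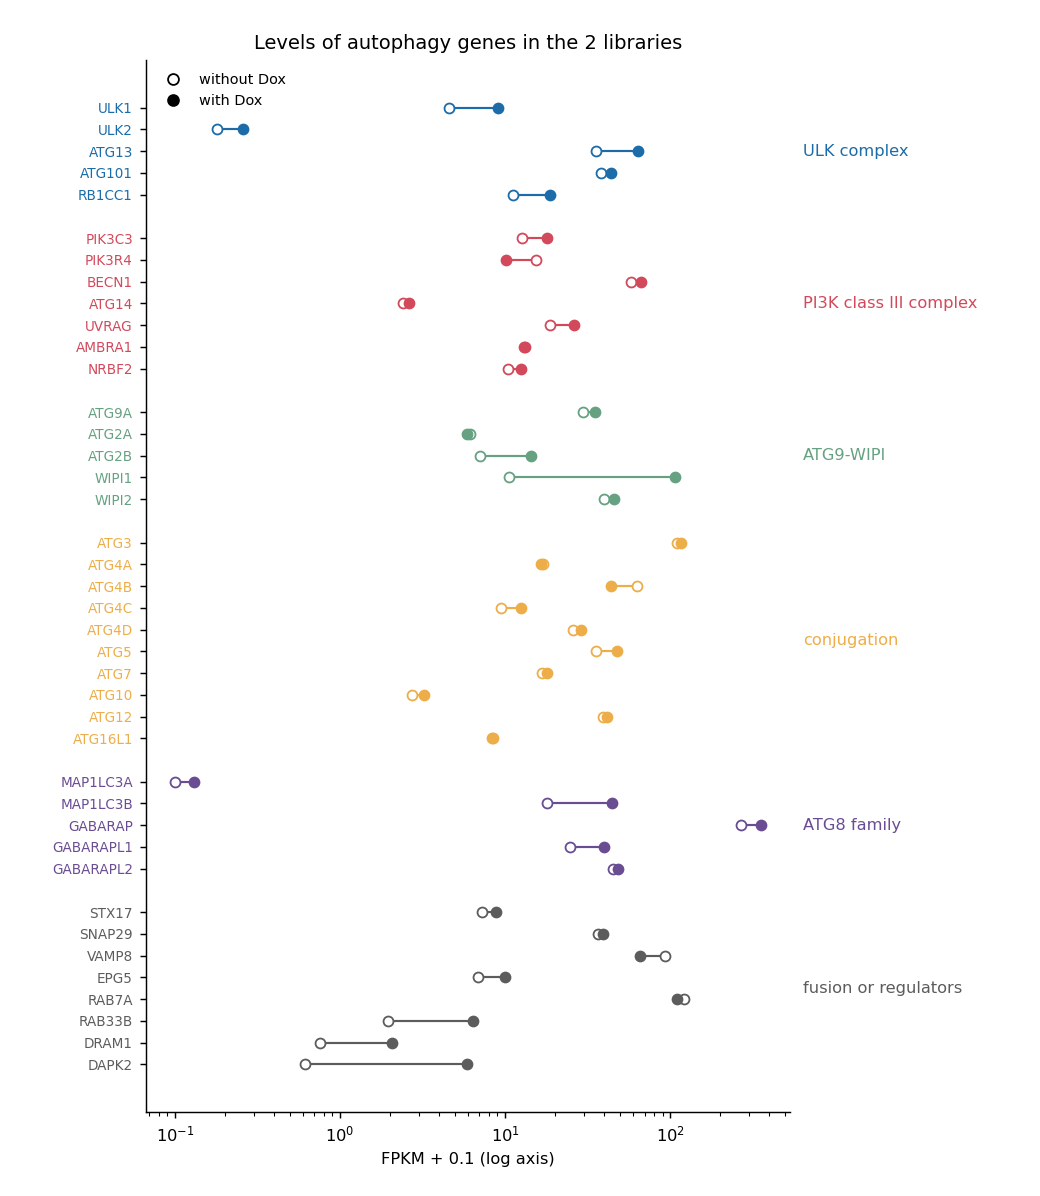
FPKM plus 0.1 of each gene on a log axis, with open circles for the library without Dox and filled circles for the library with Dox. GABARAP is the most abundant of the 40 genes (269.64 and 355.72 FPKM), and WIPI1 has the longest line (10.40 to 106.53 FPKM).

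ATG9A, ATG2 and WIPI proteins supply and shape the membrane, and WIPI1 had the highest log2 ratio of the 38 tested genes on the deposited FPKM plus 0.1. With a pseudocount of 0.01 FPKM it was second to DAPK2 (3.36 and 3.48). WIPI1 reads phosphatidylinositol 3-phosphate on the membrane. It was listed at 10.40 FPKM without Dox and 106.53 FPKM with Dox (557.68 and 6481.07 counts), which is 10.2-fold higher (log2 ratio 3.34, counting interval 3.22 to 3.47). WIPI2, the paralog that recruits ATG16L1, was at 39.53 and 45.85 FPKM (0.21, below 0 with DESeq2 factors). WIPI1 was therefore at 0.263 of the WIPI2 level without Dox and 2.32 times it with Dox, a log2 change of 3.14 (3.003 to 3.28) with or without length. WIPI1 lies on chromosome 17 from 68420948 to 68457513 on the reverse strand (GRCh38, GENCODE release 29).

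Of the exon bases of WIPI1, 28.1% overlap exons of other genes, chiefly ARSG on the opposite strand, and no use of strand in counting is stated. ARSG was listed at 2.70 and 7.05 FPKM (231.37 and 773.26 counts), beside 557.68 and 6481.07 counts for WIPI1. The other overlapping gene, AC007780.1, was at 0.36 and 0.71 FPKM. The values of both thus differed in the same direction as those of WIPI1. BECN1 (17.1%), ATG4D (15.0%), SNAP29 (12.1%) and ATG7 (18.1%) also share exon bases with genes on the opposite strand that have many counts. PSME3, which overlaps BECN1, had 19725.9 and 13113.7 counts beside 3235.27 and 4505.68 for BECN1. KRI1 overlaps ATG4D, PI4KA overlaps SNAP29 and VGLL4 overlaps ATG7. How reads of the shared bases were assigned was not tested.

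ATG2B, a lipid transfer protein, was at 6.91 FPKM without Dox and 14.17 FPKM with Dox (2429.26 and 4681.87 counts). Its log2 ratio was 1.03 (0.95 to 1.10), just past the 2-fold limit that ULK1 reached but did not exceed. The call did not hold without a length term (0.86 on CPM), with TMM factors (0.82) or with DESeq2 factors (0.81). Its paralog ATG2A was at 6.02 and 5.76 FPKM, and its direction turned with TPM. The ATG2B to ATG2A ratio went from 1.15 to 2.46, a log2 change of 1.10 (0.97 to 1.23), but 0.84 on counts with no length. ATG9A, the scramblase carried by vesicles, was at 29.56 and 34.87 FPKM (0.24). AC068946.2 on the same strand shares 38.8% of the exon bases of ATG9A, and was itself at 0.23 and 0.16 FPKM.

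Summed over the 5 genes, the ATG9-WIPI step went from 92.42 to 207.18 FPKM. WIPI1 made up 11.3% of that sum without Dox, with rank 3 of 5, and 51.4% with Dox, with rank 1. WIPI2, which had rank 1 without Dox at 42.8%, made up 22.1% with Dox.

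**Figure D4:**
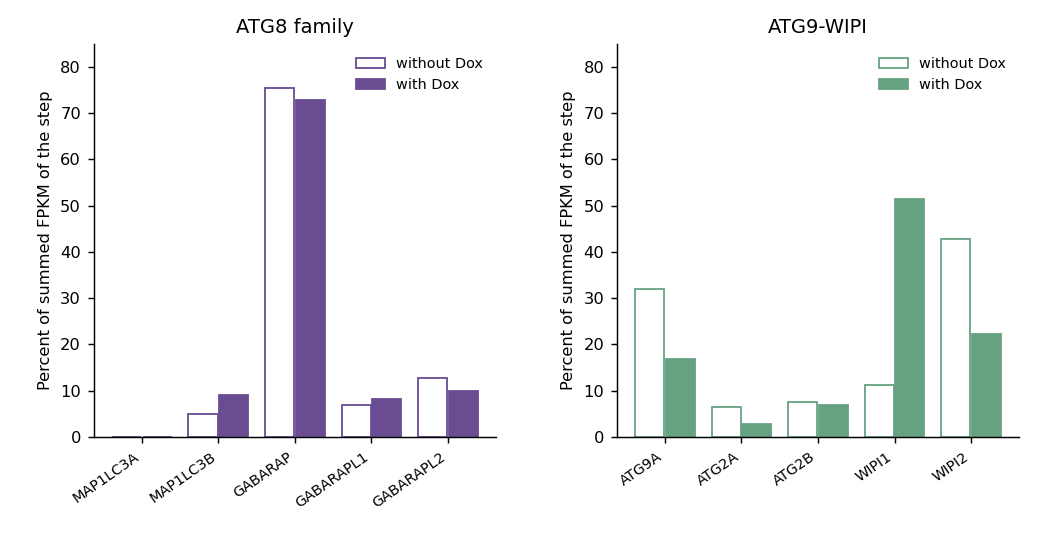
The share of each gene in the summed FPKM of the ATG8 family (left) and of the ATG9-WIPI step (right), in percent, with open bars for the library without Dox and filled bars for the library with Dox. GABARAP holds 75.4% and 72.9% of the ATG8 sum, whereas WIPI1 goes from 11.3% to 51.4% of its step.

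In the conjugation systems 0 of 10 genes were past 2-fold on the deposited FPKM plus 0.1, and their log2 ratios lay between -0.53 and 0.42. On that scale the ULK and PI3K complexes also had 0 genes past 2-fold. ULK1 did pass the limit with TPM, CPM or a pseudocount of 0.01 FPKM. The background shares (11.8% higher and 6.04% lower, protein-coding) would give few calls in steps this small. These counts of 0 therefore cannot be read as low. ATG7, the E1-like enzyme of both systems, was at 16.71 FPKM without Dox and 17.74 FPKM with Dox (1107.6 and 1237.59 counts, log2 ratio 0.09, counting interval -0.03 to 0.20), and its direction turned with TMM (-0.12) and DESeq2 (-0.13) factors. ATG7 RNA thus did not differ beyond counting error on the deposited FPKM. By western blotting, the study reported more ATG5 and ATG7 protein and more LC3 conversion after knockdown. Those are protein results and were not tested here. ATG5, the protein joined to ATG12, was at 35.62 and 47.68 FPKM (3350 and 4998 counts, log2 ratio 0.42, 0.36 to 0.48). Its log2 ratio was lower with TMM (0.21) and DESeq2 (0.20) factors and remained above 0.

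ATG12 was at 38.93 and 41.62 FPKM, ATG16L1, which forms the E3-like complex with ATG12 and ATG5, at 8.28 and 8.31 FPKM, and ATG10, the E2-like enzyme for ATG12, at 2.65 and 3.14 FPKM. ATG3, the E2-like enzyme for the ATG8 family, was the most abundant of the step at 109.97 and 115.96 FPKM. None of these 4 differed by more than 25%. Within the ATG5 to ATG12 pair, the ratio went from 0.915 to 1.15 (log2 change 0.32, 0.23 to 0.42), or 0.29 on counts with no length.

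The 4 ATG4 proteases, which cut ATG8 proteins after the glycine shown above and release them from the membrane, did not move together. ATG4B, the main protease of the family, was at 63.13 FPKM without Dox and 43.70 FPKM with Dox (-0.53), and ATG4C was at 9.34 and 12.33 FPKM (0.40). ATG4A was at 16.88 and 16.31 FPKM and ATG4D at 25.85 and 28.63 FPKM. ATG4B remained the most abundant protease in both libraries, and the ATG4C to ATG4B ratio went from 0.148 to 0.282, a log2 change of 0.93 (0.77 to 1.09), or 0.76 on counts with no length.

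The ATG8 family coats the membrane and binds cargo receptors, and its summed level went from 357.48 to 487.97 FPKM. MAP1LC3B (LC3B) was at 17.93 FPKM without Dox and 44.50 FPKM with Dox (1975.67 and 5133.6 counts), a log2 ratio of 1.31 (1.23 to 1.38). It was past 2-fold under every scaling and pseudocount tried. MAP1LC3A was listed at 0 and 0.03 FPKM, with 0 and 2 counts. Both values are under the limit of 3 counts that a count of 0 allows, so no fold is given for MAP1LC3A.

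The copy MAP1LC3B2 was listed at 0.47 and 3.54 FPKM (9.33 and 73.4 counts). Counted together, MAP1LC3B and its copy had 1985 and 5207 counts, a log2 ratio of 1.31 on CPM. The copy took 0.470% of those counts without Dox and 1.41% with Dox, and 2.55% and 7.37% of the summed FPKM of the 2 genes. The difference in LC3B was therefore as large with the 2 genes joined.

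GABARAP, GABARAPL1 and GABARAPL2 form the other branch, which acts mainly in later maturation. GABARAP was the most abundant of all 40 genes, at 269.64 FPKM without Dox and 355.72 FPKM with Dox (0.40). GABARAPL1 was at 24.69 and 39.45 FPKM (0.67), and GABARAPL2 at 45.22 and 48.27 FPKM (0.09, below 0 with TMM and DESeq2 factors). LC3B made up 5.02% of the family sum without Dox and 9.12% with Dox, moving from rank 4 to rank 3 of the 5 genes, while GABARAP made up 75.4% and 72.9%. LC3B was higher relative to GABARAP by a log2 change of 0.91 (0.82 to 1.001), or 0.81 on counts with no length, yet in the library with Dox it still stood at only 0.125 of the GABARAP level. Of the exon bases of GABARAP, 55.7% overlap other genes, among them AC120057.2 on the same strand, which was listed at 4.26 and 2.74 FPKM.

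Fusion with the lysosome uses the SNARE proteins STX17, SNAP29 and VAMP8, the tether EPG5 and the small GTPase RAB7A. None of these 5 was past 2-fold. VAMP8, the SNARE on the lysosome, was at 93.40 FPKM without Dox and 65.93 FPKM with Dox (-0.50). STX17, the SNARE on the autophagosome, was at 7.19 and 8.71 FPKM (0.27), and SNAP29, which bridges them, was at 36.35 and 39.09 FPKM. The partners thus moved apart, with the STX17 to VAMP8 ratio going from 0.0770 to 0.132 (log2 change 0.78, 0.60 to 0.95), or 1.023 on counts with no length. EPG5 was at 6.77 and 9.84 FPKM (0.53), and RAB7A, the most abundant gene of the group, at 120.78 and 109.27 FPKM.

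The 3 remaining genes of that group are regulators, each under 2 FPKM without Dox. DAPK2 and DRAM1 were tested on the strength of their level with Dox alone. DAPK2, a calmodulin-dependent death-associated kinase, was at 0.51 FPKM without Dox and 5.78 FPKM with Dox (46 and 402.46 counts, log2 ratio 3.27, 2.83 to 3.74). RAB33B, a Golgi GTPase that binds ATG16L1, was at 1.85 and 6.27 FPKM (347.33 and 1276.79 counts, 1.71, 1.54 to 1.88). DRAM1, a lysosomal membrane protein known as a p53 target, was at 0.66 and 1.96 FPKM (100 and 211 counts, 1.44, 1.09 to 1.80). In the library with Dox they held 2.34%, 2.54% and 0.794% of the summed FPKM of the group.

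DAPK2 lies on chromosome 15 from 63907036 to 64072033, RAB33B on chromosome 4 from 139453232 to 139476609 and DRAM1 on chromosome 12 from 101877351 to 102012130 (GRCh38). RAB33B shares 13.8% of its exon bases with AC097376.2 on the opposite strand, which was listed at 1.5 FPKM without Dox and 5.08 FPKM with Dox. The RAB33B and AC097376.2 values thus differed in the same direction, and whether reads of 1 were counted for the other was not tested. Because these are bulk RNA values, more expressing cells and more RNA per cell cannot be told apart.

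Of the 26 genes at 10 FPKM or more in both libraries, 2 were more than 2-fold higher (WIPI1 and MAP1LC3B). The share of all genes at that level was not computed, so this count cannot be read as high or low. The order of the 40 genes by level was largely kept between the libraries (Spearman's rho 0.917 across genes, which are not independent replicates and share the library).

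The tables also give the abundance-weighted mean length of the transcripts of each gene, which moves when the mix of transcripts does. Among the 38 tested genes, 2 differed by more than 25% in mean length, beside 4.90% of all tested genes and 5.17% of protein-coding genes. That share lay near the background. Both were genes past 2-fold in level, and they had the lowest counts among those genes. DRAM1 had a mean length of 3519 bases without Dox and 2460.39 bases with Dox. Its longest annotated transcript, ENST00000258534.12, has 3519 bases and the next longest 1048. By the assigned mean lengths, the longest transcript made up 100% of DRAM1 transcripts without Dox and between 57.2% and 67.1% with Dox. These shares are estimates from reads apportioned among transcripts, on 100 and 211 counts, and carry no interval. On CPM, which use no length, the DRAM1 log2 ratio was 0.96, under the 2-fold limit. DRAM1 was thus past 2-fold on FPKM, which divides by the shorter assigned length, and not on the 100 and 211 counts scaled to library size.

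DAPK2 had a mean length of 2195.21 bases without Dox and 1674.80 bases with Dox, and its log2 ratio on CPM was 2.92. The difference in DAPK2 was therefore past 2-fold without the length term. With 13 annotated DAPK2 transcripts, the mean length does not say which of them differed. ULK2, not tested for its low level, had mean lengths of 2961.94 and 1692.54 bases from 10 and 11 counts.

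**Figure D5:**
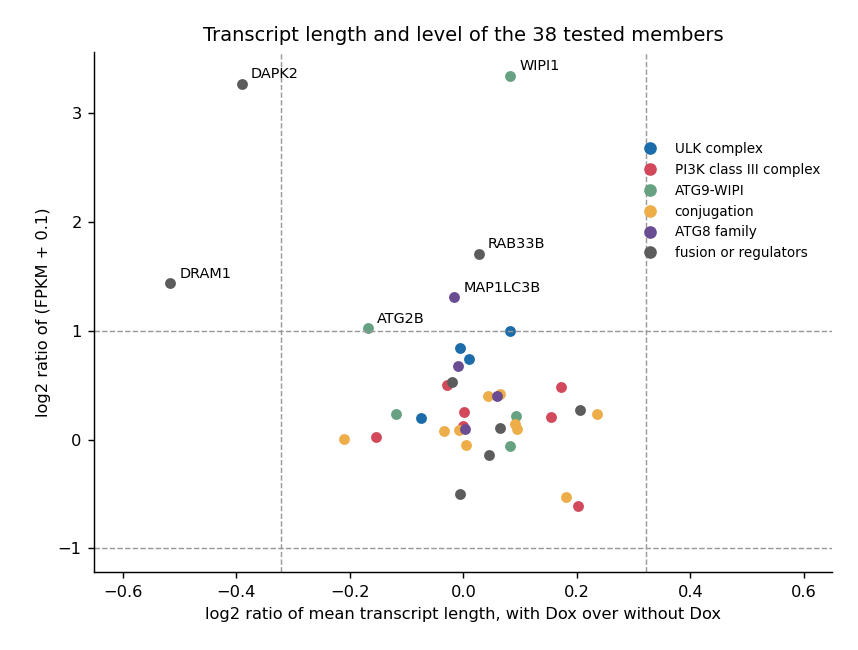
The log2 ratio of mean transcript length (horizontal) against the log2 ratio of FPKM plus 0.1 (vertical), with Dox over without Dox, for the 38 tested genes coloured by step. Dashed lines mark a difference of 25% in length and 2-fold in level. DRAM1 and DAPK2 lie left of the length line, whereas WIPI1, RAB33B, MAP1LC3B and ATG2B lie between the lines.

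The study called differential genes with edgeR, past 2-fold and at a false discovery rate under 0.05. When each group has 1 library, edgeR needs an assumed biological coefficient of variation. The calls below used the same rate but no fold limit. With an assumed coefficient of 0.4, the edgeR exact test at a false discovery rate of 0.05 called 0.707% of 19934 genes higher and 0.125% lower, and among 39 autophagy genes it called WIPI1 higher and 0 lower. With an assumed coefficient of 0.2, it called 9.82% of genes higher and 5.68% lower, and among the autophagy genes WIPI1, RAB33B and DAPK2 higher and 0 lower. MAP1LC3B, ATG2B and DRAM1 were called at neither value. These calls rest on the assumed value and not on a measured spread between samples.

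A further 27 genes of the same steps were listed as a comparison, among them WDR45, VMP1, TMEM41B and the HOPS tethering subunits. Of the 24 tested, 1 was more than 2-fold higher and 1 lower, 18 lay above 0 and the median log2 ratio was 0.26, beside 16.9% higher, 6.41% lower, 58.4% above 0 and a median of 0.15 over all tested genes. With TMM factors 10 of the 24 lay below 0. The higher gene was MAP1LC3B2, described above, which reached 1 FPKM in the library with Dox and not in the other. WDR45 (WIPI4), a paralog of WIPI1 that binds ATG2 and was named after its values were seen, lay just under the limit, at 42.67 FPKM without Dox and 84.99 FPKM with Dox (0.99), and WDR45B (WIPI3) was at 21.86 and 29.84 FPKM. The lower gene was EI24, an endoplasmic reticulum membrane protein needed for autophagy, at 78.84 FPKM without Dox and 38.86 FPKM with Dox (-1.02).

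Transcription of autophagy genes is known to be driven by ATF4 and CHOP under stress of the endoplasmic reticulum and by TFEB when lysosomes are disturbed. The 2 lists of reported targets below were chosen with earlier results of these data known, and are given as background only. Of the 12 and 6 tested genes on them, 10 and 3 are among the 40 genes already described. Of the 38 tested autophagy genes, 84.2% lay above 0, and WIPI1 and MAP1LC3B were already known to be past 2-fold. Of 12 genes reported as targets of ATF4 or CHOP, all 12 lay above 0 on the deposited FPKM but 2 were more than 2-fold higher, MAP1LC3B and the cargo receptor NBR1 (28.19 and 62.25 FPKM, 1.14), and the median was 0.18. Of protein-coding genes, 54.3% lay above 0, 11.8% were more than 2-fold higher and the median was 0.07. With TMM factors 6 of the 12 lay below 0 (ATG3, ATG7, ATG12, ATG16L1, GABARAPL2 and SQSTM1), when 42.1% of protein-coding genes lay above 0. Of 6 tested genes reported as TFEB targets, 2 were more than 2-fold higher (WIPI1 and MAP1LC3B), with a median of 0.31, beside the same protein-coding values, and with TMM factors 3 of the 6 lay below 0 (SQSTM1, VPS11 and VPS18). The lists share MAP1LC3B and the receptor SQSTM1 (p62), which was at 27.23 and 30.12 FPKM (0.15). These are RNA values, whereas the study reported more SQSTM1 protein after knockdown by western blotting.

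Promoters of 300 bases (250 before to 50 after the start site, RefSeq, GRCh38.p14) were found for 33 of the 40 genes and were searched on both strands. The element TGATGNAA, bound by ATF4 with CCAAT-enhancer-binding proteins, was in 0 of 33, beside 3.62% of all 35116 promoters and 1.96% of those of tested protein-coding genes. The forkhead motif GTAAACA was in 0 of 33, beside 3.42% and 2.49%. The E-box CACGTG was in 4 of 33 (ATG3, ATG14, NRBF2 and SNAP29), which is 12.1%, beside 7.26% and 9.51%. The longer CLEAR palindrome, which contains that E-box, was in 0 of 33, beside 0.353% and 0.693%. None of the 4 genes with an E-box differed by more than 25%, as was so for 19 of the 38 tested autophagy genes. No promoter of a gene past 2-fold held any of the motifs, RAB33B not being among those matched. The background shares would give few matches among so few promoters, so these counts of 0 cannot be read as low. A match is only a match of letters, and its absence says nothing of a factor binding elsewhere.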

How the data were processed

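Total RNA was poly(A)-selected and read in pairs of 150 bases, as 1 library per condition. The authors deposited, for each library, expected counts per gene, in which reads matching several transcripts are apportioned, so that 17 of the 40 genes have counts that are not whole (tolerance 0.005). The authors deposited FPKM and TPM values made from these counts and the effective transcript length, and TPM sums to the same total in each library. The submitters' processing notes name hg19, Bowtie 0.12.2, HISAT2 2.1.0 and StringTie 1.3.4d without their roles, whereas 203746 of the 204675 listed transcripts are in GENCODE release 29 by ID, whose GRCh38 coordinates are used. Annotation columns deposited beside them were not tested.

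The members, lists and tests were chosen with earlier results of these data known. Log2 ratios used FPKM plus 0.1, and genes reaching 1 FPKM in either library were tested. All 40 genes are named, and those past 2-fold and those whose proteins the study measured (ATG5, ATG7, MAP1LC3A, MAP1LC3B) are given with counts and, for tested genes, intervals. Of the other lists, genes past 2-fold with at least 5 FPKM are named. MAP1LC3B2 fell outside that rule and was chosen after its values were seen, as were the ratios of gene pairs, whose 95% counting intervals use a normal approximation on the log scale without the pseudocount. Expected counts were rounded for edgeR 4.0.16 (TMM, exact test with an assumed coefficient, at least 10 counts over both libraries) and DESeq2 1.42.0 (size factors) in R 4.3.3. Python 3.11.15, pandas 2.3.3, numpy 2.4.6, scipy 1.17.1, Biopython 1.88 and matplotlib 3.10.9 were used for the rest. Both the ratios and the edgeR step were tested on simulated data.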

Additional observations from a re-analysis of the deposited data

How the results depend on the processing

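No paired analysis was possible because each condition had a single library, and for the same reason no library could be left out. The median log2 ratio of the autophagy genes was 0.033 with TMM factors and 0.022 with DESeq2 factors in place of 0.24, and the conjugation median was -0.12 and -0.13 in place of 0.09. These scalings divide every gene of a library by 1 factor, so they shift all ratios by nearly the same amount. The count of 6 autophagy genes past 2-fold was 2 without the 4 genes shown by the study. It lay between 4 and 7 under the other pseudocounts, scalings and filters. The edgeR exact test, used without a fold limit, called 1 gene higher at an assumed coefficient of 0.4 and 3 at 0.2. Under a pseudocount of 1 FPKM, ATG2B and DRAM1 were not past 2-fold, and under 0.01 FPKM, TPM or CPM, ULK1 was. The count of genes more than 2-fold lower was 0 under every alternative. WIPI1, MAP1LC3B, RAB33B and DAPK2 were past 2-fold under each pseudocount and scaling tried, while 12 genes turned below 0 with DESeq2 factors and 10 with TMM factors. DRAM1 and DAPK2 rest on 100 and 46 counts without Dox, the lowest depth among the genes past 2-fold.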
